A study of Mus musculus with 34 samples.

Results

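Cytotoxic lymphocytes kill through a small set of granule proteins, and the messenger RNAs of 10 such genes are described here in mouse splenic T cells: the granzymes Gzma, Gzmb, Gzmc, Gzmd, Gzme and Gzmk, the pore protein gene Prf1, the granule membrane protein gene Nkg7, and the serpin genes Serpinb9 and Serpinb6b. They were picked by name as genes of one pathway, and they are 10 of the 48526 genes in the count table. Of these, 8 passed the filter on low counts and were tested. Gzmd and Gzme did not pass it.

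Perforin, the product of Prf1, opens the membrane of a target cell, and granzymes, which are serine proteases carried in the same granules, enter through it. Granzyme B cleaves after acidic residues and starts apoptosis by activating caspases, whereas granzymes A and K are trypsin-like proteases. Serpinb9 encodes the intracellular inhibitor of granzyme B that protects killer cells from their own protease, Serpinb6b belongs to the same clade of intracellular serpins, and Nkg7 supports the release of granules. Resting CD8 T cells carry little of this machinery and build it over days after activation, while natural killer (NK) cells hold it ready made.

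The cells were pan T cells, taken by negative selection from spleens of C57BL/6 mice aged 6 to 12 weeks, and were cultured with antibodies to CD3 and CD28 and recombinant IL-2. CD28 is the receptor that gives T cells their second, costimulatory signal. Unstimulated wild-type (WT) cells formed the day 0 group (2 libraries), and WT cells were also sampled after 24 h (day 1, 2 libraries) and 72 h (day 3, 2 libraries). The other genotypes were sampled on both stimulated days: Ars2 KO (3 libraries per day), which concerns the RNA-binding protein ARS2 encoded by Srrt, CD28 KO (2 per day), CD28 AYAA (3 per day), CD28 Y170F (3 per day) and DKI (3 per day). AYAA alters a proline motif of the CD28 tail and Y170F a tyrosine motif. The design text calls DKI a CD28 allele, and the labels say no more about it. Neither the driver of the Ars2 deletion nor the cells it acts in is given, and no unstimulated library of a mutant genotype was analysed here. The CD28 antibody was part of the stimulus in the CD28 KO cultures too. Replicates are called biological in the design text, which does not say which of them came from separate animals.

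Depth was 8.3 to 47.8 M expected counts per library. The 6 DKI libraries and WT number 4 of each stimulated day lay under 12 M and are treated as a depth batch, which the labels do not name. Each call that set a member in a mutant against stimulated WT is therefore also checked against the WT library of matching depth alone. Differences that did not pass are mostly given without that check. The 2 unstimulated libraries were the deepest, were the only ones with 17.2 to 17.5% of counts in mitochondrial ribosomal RNA (0 to 0.18% after stimulation) and were the only WT libraries that expressed Xist, so that depth, sex and RNA makeup cannot be told apart from stimulation. Srrt was lower in Ars2 KO than in WT on day 1 (log2 fold change −2.09, adjusted p = 1.9e-05) and on day 3 (−0.71, adjusted p = 0.042). Within Ars2 KO it rose between these days (1.44, adjusted p = 2.2e-05). The day 3 libraries of Ars2 KO, at 105 to 146 CPM of Srrt, overlapped those of WT, at 145 to 245 CPM. Cd28, counted over the whole gene, was at 476 and 482 CPM in CD28 KO at day 1, no lower than in WT (387 and 411 CPM; 0.26 ± 0.18, adjusted p = 0.24), and at 212 and 214 CPM at day 3, below WT (474 and 587 CPM; −1.32 ± 0.18, adjusted p = 1.6e-05). The day 1 count does not bear out the label, and the labels do not say which part of the gene is altered, so CD28 KO names the libraries by their label throughout. Xist was over 1 CPM in both CD28 KO libraries of each day and in no DKI or stimulated WT library, so that sex and genotype cannot be told apart in CD28 KO against WT or DKI. On each day it was also over 1 CPM in 2 of 3 Ars2 KO libraries, 1 of 3 of CD28 AYAA and 1 of 3 of CD28 Y170F. Sex was thus mixed within these groups, and it differed in part from stimulated WT. Some libraries stood apart for the genes described here. Number 3 of Ars2 KO at day 3 had a ratio of Cd8a to Cd4 of 1.41, against 4.74 and 7.16 in the other 2 libraries of its group, and number 3 of CD28 Y170F at day 1 and number 1 at day 3 held more Gzmb than the rest of their groups. Results that rest on them are given without them too where the call changed, and for many of the values that moved by over 1.5 times. In pooled RNA of this kind, fewer cells of a type and less RNA per cell cannot be told apart.

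Gzmb lies at chr14:56258838-56262260 on the minus strand of GRCm38, next to Gzmc (chr14:56231441-56234656), Gzmd (chr14:56129556-56132608) and Gzme (chr14:56117626-56120625) on the same strand. The open reading frames of Gzmd and Gzme were identical at 93.3% of aligned bases, those of Gzmb and Gzmc at 76.0%, and the other pairs of these neighbours at 66.0 to 72.3%. The 250 bases before the start sites are shown for 4 granzymes and Serpinb9, because Gzmb, Gzmc and Gzme differed so widely in level although they share 1 cluster, and because Gzmb and Serpinb9 were the members that passed in the comparisons of days with WT. The sequences are those of RefSeq on GRCm38.p6, read 5′ to 3′ on the strand of the gene. Capitals mark matches, on either strand, to the RUNX core TGTGGT, to the AP-1 site TGANTCA and to the T-box core TCACAC.
Gzmb, chr14:56262335-56262584, minus strand: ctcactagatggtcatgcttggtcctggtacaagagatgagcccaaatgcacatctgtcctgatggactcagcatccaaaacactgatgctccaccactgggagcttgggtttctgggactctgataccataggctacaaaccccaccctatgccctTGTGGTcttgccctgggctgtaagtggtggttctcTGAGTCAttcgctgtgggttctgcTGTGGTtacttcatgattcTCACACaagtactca
Gzmc, chr14:56234658-56234907, minus strand: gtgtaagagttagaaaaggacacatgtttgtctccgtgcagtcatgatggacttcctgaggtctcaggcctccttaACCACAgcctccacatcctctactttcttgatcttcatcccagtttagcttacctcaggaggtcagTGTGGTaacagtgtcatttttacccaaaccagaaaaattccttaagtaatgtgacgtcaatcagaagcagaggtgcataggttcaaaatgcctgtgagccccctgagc
Gzme, chr14:56120626-56120875, minus strand: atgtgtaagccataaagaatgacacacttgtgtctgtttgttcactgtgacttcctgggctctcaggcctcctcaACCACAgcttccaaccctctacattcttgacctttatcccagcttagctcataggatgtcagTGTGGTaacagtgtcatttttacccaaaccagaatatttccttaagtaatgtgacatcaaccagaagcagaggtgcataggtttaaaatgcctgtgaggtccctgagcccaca
Gzma, chr13:113100982-113101231, minus strand: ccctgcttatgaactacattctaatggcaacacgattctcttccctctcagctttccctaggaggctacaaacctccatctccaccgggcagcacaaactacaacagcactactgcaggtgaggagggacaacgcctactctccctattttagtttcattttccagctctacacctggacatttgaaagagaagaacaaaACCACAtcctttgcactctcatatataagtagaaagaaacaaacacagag
Serpinb9, chr13:33004291-33004540, plus strand: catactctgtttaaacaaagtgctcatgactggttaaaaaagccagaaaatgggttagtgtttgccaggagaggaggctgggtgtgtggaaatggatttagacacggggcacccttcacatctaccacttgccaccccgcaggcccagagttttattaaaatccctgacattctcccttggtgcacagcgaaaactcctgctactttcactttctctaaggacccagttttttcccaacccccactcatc

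Gzmb carried RUNX matches whose first bases stand at −93 and −34, an AP-1 match at −58 and a T-box match at −15 relative to the RefSeq start. Gzmc and Gzme were 80.9% identical over these 250 bases and each held a pair of RUNX matches, at −174 and −108 in Gzmc and at −175 and −113 in Gzme. Gzmb and Gzmc shared only 47.8% of bases there, less than their reading frames do. Gzma had 1 RUNX match at −50, and the Serpinb9 sequence had none of the 3 motifs. Over the 250 bases before the start, the RUNX core was found in 7 of the 10 genes and in 14.2% of 27025 promoters. The 7 include the neighbours Gzmc, Gzmd and Gzme, whose sequences there were 80.5 to 94.8% identical to each other. Their matches are thus not independent, and the count was not tested against the share of all promoters. The AP-1 site was found in 1 of 10 and in 6.87% of promoters, and the T-box core in 3 of 10 and in 12.2%. The annotated GENCODE start of Gzmb lies 74 bases downstream of the RefSeq start, and that of Serpinb9 lies upstream, so that its window is inside the GENCODE gene. The same holds for Gzmk, whose GENCODE start lies far upstream. In the Nkg7 window, 65 bases lie in GENCODE exons. Gzmk and Nkg7 are among the 3 genes with a T-box match.

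Gzmb gave the widest range of all members. Unstimulated WT cells held 7.41 and 9.89 CPM (counts per M counts of the library, scaled with TMM factors). At day 1 the WT libraries reached 371 and 216 CPM, and at day 3 they held 737 and 498 CPM. Each step lay above the one before with no overlap. Gzmb rose from day 0 to day 1 by 5.09 ± 0.77 on the log2 scale, a 34-fold change (± is the standard error here and below; adjusted p = 5.7e-06, edgeR quasi-likelihood F test with Benjamini-Hochberg adjustment over all 18292 genes tested, which is the test behind every adjusted p unless another is named). The further step in WT to day 3 was 1.07 ± 0.65 (adjusted p = 0.23), so it did not pass.

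The mutants fell into distinct patterns of Gzmb. At day 1 the level was 18.4 and 34.3 CPM in CD28 KO, and 39.1, 21.6 and 38.1 CPM in DKI. All 5 of these libraries lay above unstimulated WT and below both WT libraries of day 1. CD28 AYAA held 58.8, 86.6 and 138 CPM, also below both WT libraries, whereas CD28 Y170F, at 114, 127 and 357 CPM, and Ars2 KO, at 241, 504 and 233 CPM, overlapped WT. Against WT of day 1, Gzmb was 11.1-fold lower in CD28 KO (−3.48 ± 0.71, adjusted p = 0.00031) and 8.9-fold lower in DKI (−3.15 ± 0.61, adjusted p = 6e-04). Both held against the WT library of matching depth (−3.81 with adjusted p = 0.00041, and −2.67 with adjusted p = 0.029) and without any single library. The difference in CD28 AYAA was −1.63 ± 0.58 (adjusted p = 0.1), and that in CD28 Y170F −0.56 ± 0.58 (adjusted p = 1), or −1.3 (adjusted p = 1) without its number 3.

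At day 3 the order was turned over. CD28 KO then held 2040 and 1680 CPM of Gzmb, DKI 1940, 1680 and 1980 CPM, and CD28 AYAA 1350, 1890 and 2160 CPM. Every one of these 8 libraries lay above both WT libraries of day 3, which were at 737 and 498 CPM. Ars2 KO spread from 707 CPM in number 3 to 1750 and 3320 CPM in numbers 1 and 2, and CD28 Y170F held 620 CPM in number 1 and 134 and 164 CPM in the others. The differences from WT were 1.59 ± 0.65 in CD28 KO (adjusted p = 0.088), 1.59 ± 0.62 in DKI (adjusted p = 0.062), and 1.54 ± 0.61 in CD28 AYAA (adjusted p = 0.075), and none passed. Ars2 KO, at 1.64 ± 0.62 (adjusted p = 0.081), did not pass either. Without number 3 of Ars2 KO its difference was 2.04 and passed (adjusted p = 0.02). CD28 Y170F was at −1.01 ± 0.57 (adjusted p = 0.92), and without its number 1 at −2.05, which passed (adjusted p = 0.032). The plot of levels in each library shows both days side by side.

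**Figure D1:**
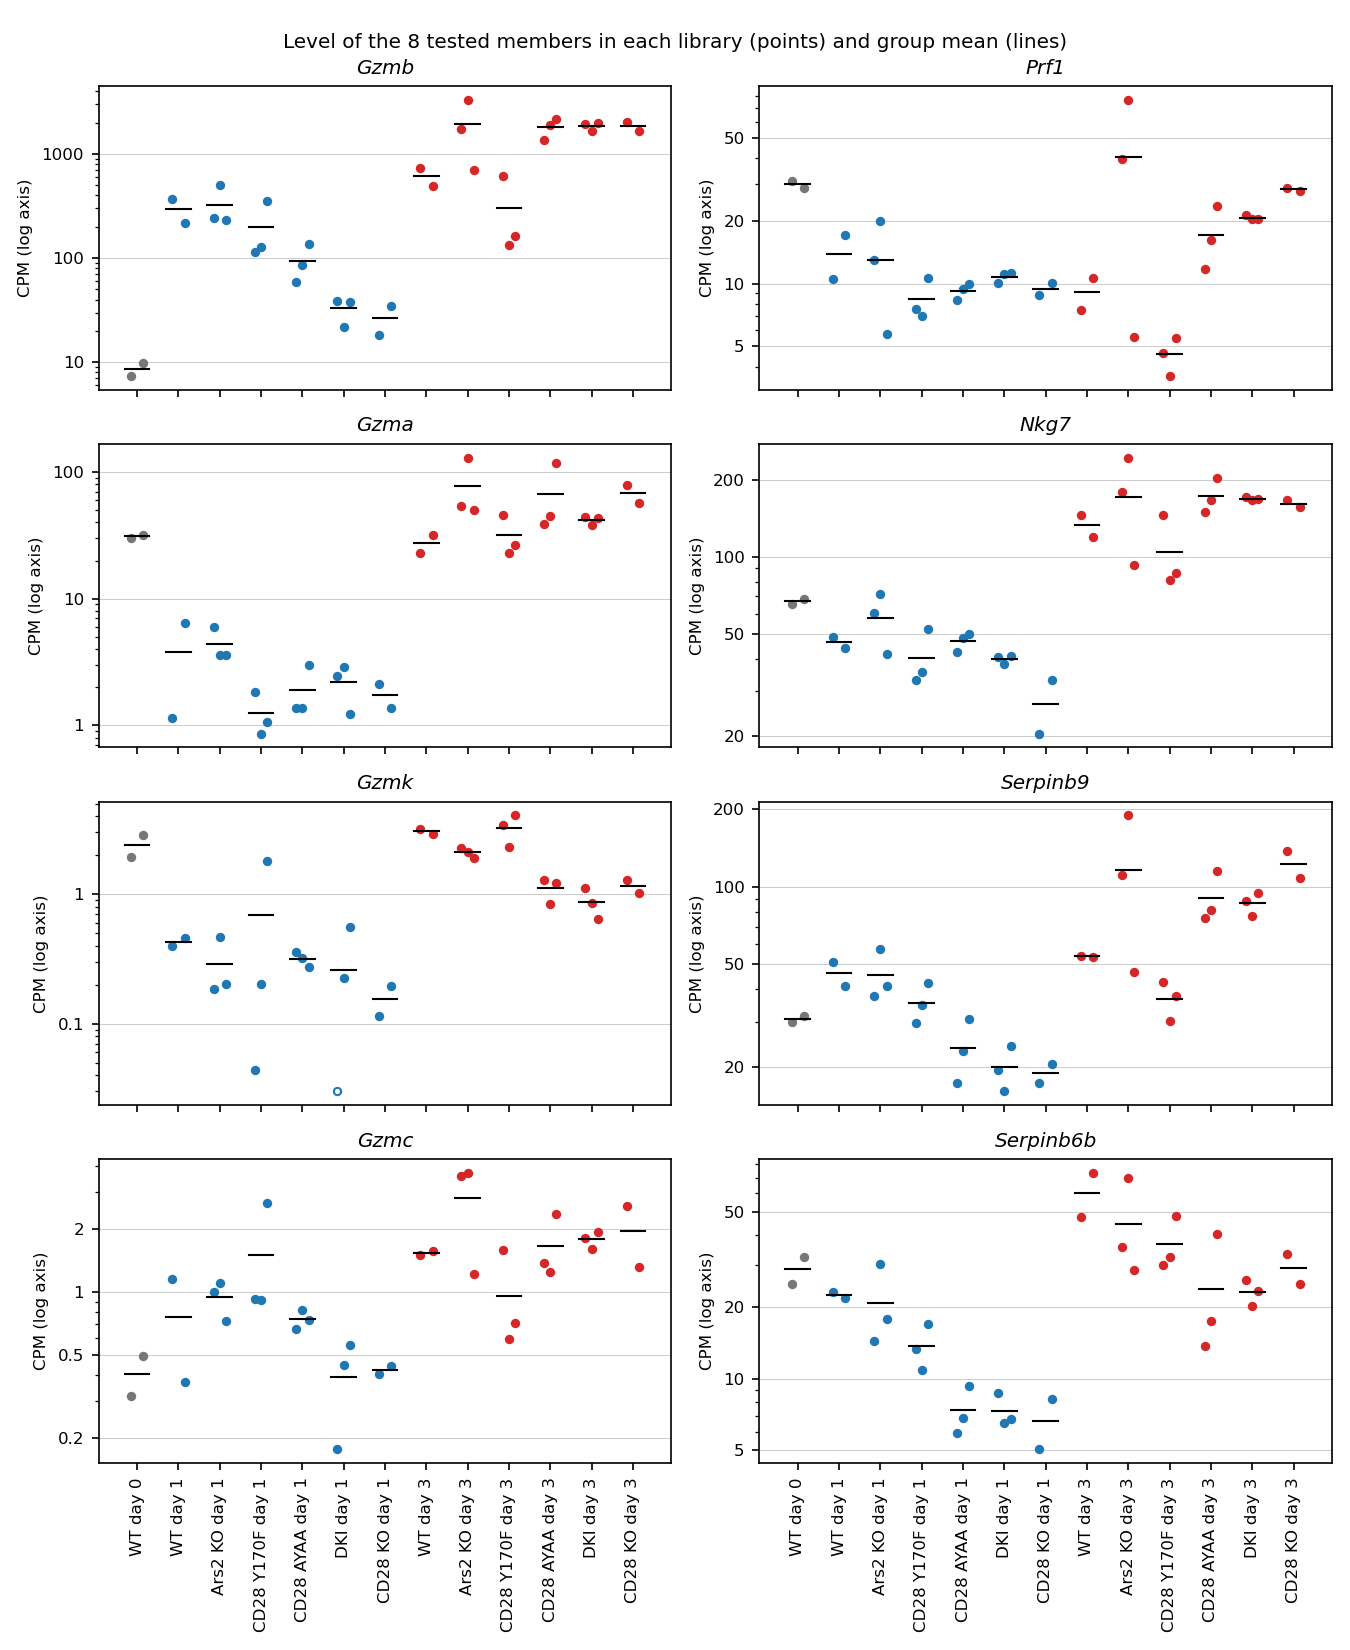
Level of each of the 8 tested genes in CPM (log axis, its range set per panel) in all 34 libraries, as points, with the group mean as a line; grey is unstimulated WT, blue day 1 and red day 3, and the open point is the only library at 0, drawn at 0.03 CPM. Gzmb at day 3 lies between 1350 and 2160 CPM in the CD28 AYAA, DKI and CD28 KO libraries, above both WT libraries, whereas at day 1 the same genotypes lie below WT.

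From day 1 to day 3 Gzmb rose 70.4-fold in CD28 KO (6.14 ± 0.8, adjusted p = 1.2e-06), 56.5-fold in DKI (5.82 ± 0.65, adjusted p = 9.5e-08), 19-fold in CD28 AYAA (4.25 ± 0.6, adjusted p = 4.1e-06) and 5.91-fold in Ars2 KO (2.56 ± 0.55, adjusted p = 0.0012). It did not pass in CD28 Y170F (0.62 ± 0.52, adjusted p = 0.37), where single libraries moved the value: without number 3 of day 1 the change was 1.37 (adjusted p = 0.061), and without number 1 of day 3 it changed sign (−0.42, adjusted p = 0.54). The change over the days was tested directly against that of WT, as the day 3 difference minus the day 1 difference. This contrast was 5.07 ± 0.96 in CD28 KO (adjusted p = 0.00021), 4.75 ± 0.88 in DKI (adjusted p = 0.00022) and 3.18 ± 0.85 in CD28 AYAA (adjusted p = 0.0079). Against WT of matching depth on both days it was 5.15 (adjusted p = 0.0029) in CD28 KO and 4.56 (adjusted p = 0.0067) in DKI, and 3.25 (adjusted p = 0.053) in CD28 AYAA, where the call was lost. The CD28 AYAA call was also lost without WT number 1 of day 1 (2.73, adjusted p = 0.055) or WT number 4 of day 3 (2.92, adjusted p = 0.067). In Ars2 KO the contrast was 1.49 ± 0.83 (adjusted p = 0.35) and in CD28 Y170F −0.45 ± 0.82 (adjusted p = 1), or 0.28 (adjusted p = 1) without number 3 of day 1 and −1.49 (adjusted p = 0.44) without number 1 of day 3.

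Gzma, at chr13:113093825-113100981, took the opposite course at first. It stood at 30.1 and 31.9 CPM in unstimulated WT, fell to 1.15 and 6.45 CPM at day 1, and was at 23 and 31.6 CPM at day 3. The fall was 9.63-fold (−3.27 ± 0.62, adjusted p = 0.00011), and the rise that followed was 8.42-fold (3.07 ± 0.63, adjusted p = 0.00053). All 16 libraries of day 1 lay between 0.861 and 6.45 CPM, and no library of any other day came below 23 CPM. The rise from day 1 to day 3 passed in the mutants too, and in no genotype was it lost without a single library; among the values were 4.16 ± 0.48 in Ars2 KO (adjusted p = 9.4e-07), 4.24 ± 0.57 in DKI (adjusted p = 1.7e-06) and 5.29 ± 0.67 in CD28 KO (adjusted p = 7.4e-07).

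At day 3 the highest Gzma values were 130 CPM in number 2 of Ars2 KO and 118 CPM in number 3 of CD28 AYAA, both set apart from the other libraries of their groups (53.8 and 50.2 CPM, and 39.2 and 44.6 CPM). CD28 KO held 79.6 and 56.6 CPM and DKI 44.3, 38 and 43.5 CPM, all above WT. Only Ars2 KO passed against WT (1.53 ± 0.5, adjusted p = 0.042), and this call was lost without its number 2 (0.94, adjusted p = 0.25), without WT number 1 (1.29, adjusted p = 0.22) or without WT number 4 (1.76, adjusted p = 0.14), which leaves the WT library of matching depth. Without number 3 of Ars2 KO it was 1.77 (adjusted p = 0.016).

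Gzmk (chr13:113171608-113225908) moved like Gzma in WT but at levels near the limit of these counts, with 963 counts over all libraries. It stood at 1.93 and 2.87 CPM before stimulation, at 0.396 and 0.461 CPM at day 1 and at 3.18 and 2.92 CPM at day 3. Both steps passed (−2.5 ± 0.75, adjusted p = 0.0072, and 2.85 ± 0.77, adjusted p = 0.0057). Without WT number 1 of day 1 neither did (−2.4, adjusted p = 0.081, and 2.76, adjusted p = 0.07), and the rise to day 3 also missed the threshold within WT number 1 alone (2.99, adjusted p = 0.054) and WT number 4 alone (2.69, adjusted p = 0.15). At day 3 CD28 AYAA held 1.28, 0.835 and 1.22 CPM, DKI 1.11, 0.848 and 0.648 CPM and CD28 KO 1.29 and 1.02 CPM, all below the 2.92 to 3.18 CPM of WT, while CD28 Y170F held 3.43, 2.33 and 4.06 CPM. DKI passed against WT (−1.82 ± 0.65, adjusted p = 0.044), but in no fit that left out 1 library of either group (−1.64 to −2.03, adjusted p = 0.068 to 0.15). These 3 genotypes thus had more Gzmb and less Gzmk than WT in every library of day 3, and only the Gzmk difference in DKI passed.

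The other granzymes of the cluster were scarce. Gzmc was found in all 34 libraries, with 954 counts in total, and stood at 0.317 and 0.496 CPM before stimulation and at 1.51 and 1.57 CPM in WT of day 3 (1.91 ± 0.6, adjusted p = 0.011; without WT number 1 of day 3, 1.94 with adjusted p = 0.058, and without unstimulated number 1, 1.62 with adjusted p = 0.091). Its highest values, 3.57 and 3.7 CPM, were in numbers 1 and 2 of Ars2 KO at day 3. Gzmd gave 8 counts in all, in the 3 libraries of Ars2 KO at day 3 (2, 1 and 2 counts) and in 1 library of CD28 KO at day 3 (3 counts). Gzme gave 3 counts, 1 in Ars2 KO and 2 in CD28 Y170F at day 3. All libraries of days 0 and 1 were at 0 for both genes, which allows up to 3 counts, or 0.0628 to 0.361 CPM by depth. Gzmd and Gzme share no stretch of 100 bases, though reads that fall in their shorter shared stretches cannot be told apart.

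Divided by exon length, so that levels of different genes can be set side by side, the 6 granzymes changed places. In unstimulated WT, Gzma made up 79.1% of their summed CPM per kilobase and Gzmb 15.4% (means of 2 libraries). At day 1 Gzmb made up 97.2% in WT, 97.3% in Ars2 KO and 97.4% in CD28 Y170F, but 88.1% in DKI and 87.6% in CD28 KO. By day 3 the Gzmb share was 92.9% in WT and 82.5% in CD28 Y170F, with Gzma at 15.7% there, against 95% in CD28 AYAA, 96.7% in DKI and 94.9% in CD28 KO. The 3 libraries of CD28 Y170F at day 3 ranged from 78.8 to 89.7% and did not reach the lowest WT library, at 90.8%.

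Prf1 (chr10:61297833-61304680, plus strand) took a course of its own. In WT it was highest before stimulation. It stood at 31.3 and 28.8 CPM at day 0, at 10.6 and 17.1 CPM in WT of day 1, and at 7.49 and 10.7 CPM in WT of day 3, which is below day 0 (−1.75 ± 0.62, adjusted p = 0.02; −1.48 with adjusted p = 0.16 without WT number 1 of day 3, and −1.69 with adjusted p = 0.064 without unstimulated number 1). The mutants parted at day 3. CD28 KO held 28.9 and 27.9 CPM, DKI 21.3, 20.5 and 20.4 CPM and CD28 AYAA 11.8, 16.2 and 23.5 CPM, all above both WT libraries. CD28 Y170F, at 4.67, 3.62 and 5.48 CPM, lay below them. Ars2 KO spread to both sides of WT, with 39.5 and 76.4 CPM in numbers 1 and 2 and 5.57 CPM in number 3.

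Against WT of day 3, only Ars2 KO passed for Prf1 (2.18 ± 0.59, a 4.53-fold difference, adjusted p = 0.016). Without its number 3 the difference was 2.7 (adjusted p = 4.4e-05), without its number 2 it was 1.34 (adjusted p = 0.13), without WT number 1 it was 1.89 (adjusted p = 0.13) and without WT number 4 it was 2.43 (adjusted p = 0.087). CD28 KO was at 1.67 ± 0.62 (adjusted p = 0.057) and DKI at 1.21 ± 0.59 (adjusted p = 0.14). From day 1 to day 3 Prf1 rose in Ars2 KO (1.64 ± 0.48, adjusted p = 0.014; lost at 1.29 with adjusted p = 0.078 without number 3 of day 1 and at 0.79 with adjusted p = 0.25 without number 2 of day 3) and in CD28 KO (1.58 ± 0.6, adjusted p = 0.034; lost without any 1 of its 4 libraries, at 1.5 to 1.68 with adjusted p = 0.08 to 0.15). The contrast of days in Ars2 KO against WT did not pass (2.24 ± 0.79, adjusted p = 0.11), but passed without number 3 of day 3 (2.76, adjusted p = 0.0013) and with the replicate number as a block (1.85, adjusted p = 0.018).

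Nkg7 (chr7:43437073-43438249, plus strand) rose late. It was at 65.2 and 68.6 CPM at day 0, at 48.5 and 44.1 CPM in WT of day 1 and at 146 and 120 CPM in WT of day 3. Its rise from day 1 to day 3 passed in every genotype and without any single library, from 1.37 ± 0.26 in CD28 Y170F (adjusted p = 0.00013) and 1.52 ± 0.32 in WT (adjusted p = 0.00067) to 2.59 ± 0.33 in CD28 KO (adjusted p = 9.2e-07). The low starting point of CD28 KO, 20.4 and 33 CPM at day 1, lay below WT (−0.79 ± 0.32, adjusted p = 0.049), which was lost without WT number 1 (−0.66, adjusted p = 0.24), without WT number 4 (−0.85, adjusted p = 0.08) or without its own number 1 (−0.49, adjusted p = 0.37). No genotype passed against WT at day 3. Day 3 of WT was above day 0 by 0.99 ± 0.31 (adjusted p = 0.01), and this was lost without unstimulated number 1 (0.96, adjusted p = 0.062) or WT number 1 of day 3 (0.84, adjusted p = 0.083).

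Serpinb9 (chr13:33003250-33017957, plus strand), whose product inhibits granzyme B, crossed over between the days as Gzmb did. Unstimulated WT held 29.9 and 31.6 CPM, WT of day 1 held 51 and 41.4 CPM, and WT of day 3 held 54 and 53.5 CPM. At day 1 it was at 17.4 and 20.6 CPM in CD28 KO, at 19.5, 16.1 and 24.2 CPM in DKI and at 17.3, 23 and 30.8 CPM in CD28 AYAA, all below both WT libraries. At day 3 the same genotypes held 138 and 108 CPM, 87.9, 76.9 and 94.7 CPM, and 75.5, 81.4 and 115 CPM, all above WT. Ars2 KO of day 3 held 111 and 189 CPM, with 46.8 CPM in number 3, and CD28 Y170F of day 3 held 42.6, 30.1 and 37.8 CPM, below WT.

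At day 1 Serpinb9 was lower than in WT in CD28 KO (−1.29 ± 0.38, adjusted p = 0.0074; −1.42 with adjusted p = 0.012 against WT of matching depth) and in DKI (−1.22 ± 0.34, adjusted p = 0.011; −1.01 with adjusted p = 0.2 against WT of matching depth). The CD28 KO call was lost without WT number 1 (−1.07, adjusted p = 0.088) or its own number 1 (−1.17, adjusted p = 0.07), and the DKI call also without its number 2 (−1.09, adjusted p = 0.05). At day 3 it was higher in CD28 KO (1.2 ± 0.37, adjusted p = 0.022) and Ars2 KO (1.1 ± 0.34, adjusted p = 0.033). The first was lost without column 1 of CD28 KO (1, adjusted p = 0.14), WT number 1 (1.2, adjusted p = 0.098) or WT number 4 (1.19, adjusted p = 0.11). The second was lost without Ars2 KO number 1 (1.13, adjusted p = 0.061), number 2 (0.56, adjusted p = 0.29), WT number 1 (1.09, adjusted p = 0.14) or WT number 4 (1.1, adjusted p = 0.19), and was 1.48 without Ars2 KO number 3 (adjusted p = 0.00038).

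The contrast of days was firmer for Serpinb9 than either day alone. It was 2.48 ± 0.53 in CD28 KO (adjusted p = 0.00061), 1.9 ± 0.48 in DKI (adjusted p = 0.0036) and 1.72 ± 0.48 in CD28 AYAA (adjusted p = 0.01). The first 2 passed without any single library. Against WT of matching depth on both days they were 2.62 (adjusted p = 0.0048) in CD28 KO and 1.69 (adjusted p = 0.06) in DKI, where the call was lost, and 1.85 (adjusted p = 0.05) in CD28 AYAA. The CD28 AYAA call was lost without WT number 1 of day 1 (1.55, adjusted p = 0.062) or WT number 4 of day 3 (1.71, adjusted p = 0.05). In Ars2 KO it was 1.13 ± 0.47 (adjusted p = 0.18), and 1.51 without number 3 of day 3 (adjusted p = 0.0073). In CD28 Y170F it was −0.16 ± 0.47 (adjusted p = 1).

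**Figure D2:**
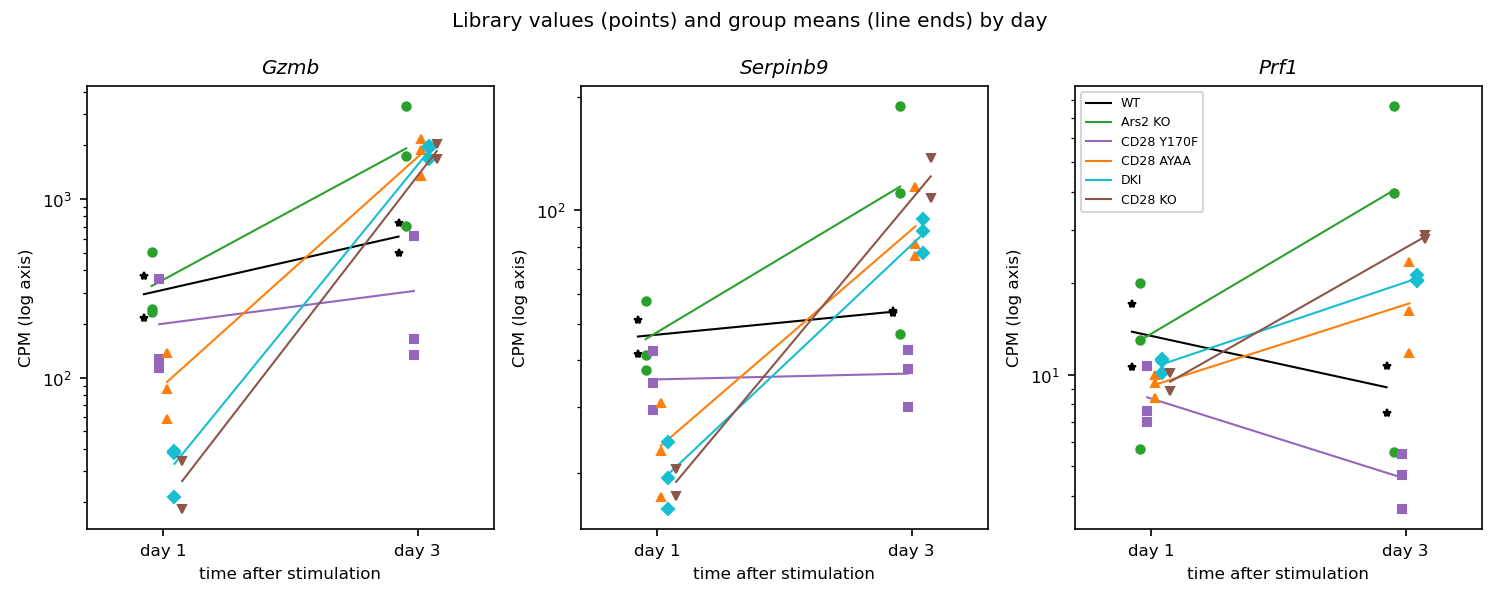
Gzmb, Serpinb9 and Prf1 in CPM (log axes) at day 1 and day 3, with points for libraries and lines joining the group means of each genotype (WT and Ars2 KO, CD28 Y170F, CD28 AYAA, DKI and CD28 KO). The lines of CD28 KO, DKI and CD28 AYAA start below WT and end above it for Gzmb and Serpinb9, while those of CD28 Y170F stay at or below WT.

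Serpinb6b (chr13:32965209-32979067, plus strand) lies just beside Serpinb9 on the same strand, with a reading frame 67.1% identical, and did not cross over. It was at 25.1 and 32.5 CPM at day 0, at 23.1 and 21.9 CPM in WT of day 1 and at 47.7 and 73 CPM in WT of day 3. At day 1 it was low in CD28 KO (5.06 and 8.18 CPM), DKI (8.74, 6.5 and 6.78 CPM) and CD28 AYAA (5.93, 6.86 and 9.34 CPM). At day 3 it was at 33.4 and 24.9 CPM, at 26.1, 20.2 and 23.4 CPM and at 13.7, 17.5 and 40.5 CPM in the same order. All 16 of these libraries lay below both WT libraries of their day. In WT it was higher at day 3 than at day 0 (1.06 ± 0.42, adjusted p = 0.036) and than at day 1 (1.41). The first was lost without unstimulated number 1 (0.89, adjusted p = 0.19) or 2 (1.26, adjusted p = 0.065) or WT number 4 of day 3 (0.73, adjusted p = 0.23). The second was lost without WT number 1 (1.5, adjusted p = 0.06) or 4 (1.37, adjusted p = 0.076) of day 1 or WT number 4 of day 3 (1.08, adjusted p = 0.12).

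Against WT of day 1, Serpinb6b was lower in CD28 KO (−1.76 ± 0.46, adjusted p = 0.0029), and the differences were −1.61 ± 0.42 in DKI (adjusted p = 0.0069) and −1.61 ± 0.4 in CD28 AYAA (adjusted p = 0.028). Against WT of matching depth these were −1.79 (adjusted p = 0.0086), −1.53 (adjusted p = 0.11) and −1.68 (adjusted p = 0.036). Calls were also lost without CD28 KO number 1 (−1.46, adjusted p = 0.055), without CD28 AYAA number 1 (−1.48, adjusted p = 0.12) or number 2 (−1.56, adjusted p = 0.095) and, for CD28 AYAA, without WT number 1 (−1.55, adjusted p = 0.27). At day 3 DKI was at −1.37 ± 0.38 (adjusted p = 0.01; −1.66 with adjusted p = 0.012 at matching depth, and −1.04 with adjusted p = 0.16 without WT number 4) and CD28 AYAA at −1.32 ± 0.37 (adjusted p = 0.012; −0.99 with adjusted p = 0.21 at matching depth, −1.05 with adjusted p = 0.065 without its number 1 and −1.14 with adjusted p = 0.064 without its number 2). Its contrast of days was 0.72 ± 0.61 in CD28 KO (adjusted p = 0.4), 0.24 ± 0.58 in DKI (adjusted p = 0.81) and 0.28 ± 0.55 in CD28 AYAA (adjusted p = 0.77). None passed. Whether the serpins differ from each other in this contrast was not tested.

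Counted over the members, 3 of the 8 tested differed between day 0 and day 1 of WT, Gzmb up and Gzma and Gzmk down, where 24.2% of all genes rose and 27.2% fell. These counts do not set the members apart from all genes. Stimulation cannot be told apart here from the depth, sex, RNA makeup and other cell markers of the day 0 libraries. At day 3 against day 0, 4 were higher (Gzmb, Gzmc, Nkg7 and Serpinb6b, where 23.5% of all genes were) and Prf1 was lower (27% of all genes). From day 1 to day 3, 4 of 8 rose in WT (15.5% of all genes did), 8 in Ars2 KO (13.3%), 8 in CD28 KO (25%), 7 in CD28 AYAA (21.7%), 6 in DKI (23.7%) and 4 in CD28 Y170F (21.1%), and none fell in any genotype. Gzma and Nkg7 were among them in all 6 genotypes. Leaving out a single library kept 2 of the 4 calls in WT, 5 of 8 in Ars2 KO, 5 of 8 in CD28 KO, 5 of 7 in CD28 AYAA, 6 of 6 in DKI and 4 of 4 in CD28 Y170F. The median log2 change of the 8 was 1.24 in WT and 2.64 in CD28 KO, against −0.03 and −0.06 over all genes.

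Set against unstimulated WT, 1 member was higher and 2 lower in Ars2 KO at day 1 (53.6% of all genes changed in either direction), 0 and 5 in CD28 KO (52.2%), 1 and 4 in CD28 AYAA (50%), 1 and 5 in DKI (49.1%) and 2 and 5 in CD28 Y170F (54.7%). At day 3 it was 5 higher and none lower in Ars2 KO (56.8% of all genes changed), 4 higher in CD28 KO (52.1%), 4 higher in DKI (58.1%) and 5 higher in CD28 AYAA (60.2%). In CD28 Y170F 1 was higher and 1, Prf1, lower (53.8%). The day 1 call on Gzmc as higher in CD28 Y170F was lost without its number 3 (1.15, adjusted p = 0.087). Prf1 in Ars2 KO at day 3 newly passed as higher without its number 3 (0.95, adjusted p = 0.025). Gzmb at day 1 was above day 0 by only 1.61 ± 0.69 in CD28 KO (adjusted p = 0.052) and 1.93 ± 0.66 in DKI (adjusted p = 0.017; 1.74 with adjusted p = 0.12 and 2.15 with adjusted p = 0.061 without unstimulated numbers 1 and 2), against 3.45 ± 0.69 in CD28 AYAA (adjusted p = 0.00019) and 4.52 ± 0.73 in CD28 Y170F (adjusted p = 1.1e-05; 3.77 without its number 3). By day 3 it was above day 0 by 7.7 to 7.8 in Ars2 KO, CD28 KO, DKI and CD28 AYAA and by 5.15 in CD28 Y170F (4.11 without its number 1), and all 5 passed.

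Against WT of the same day, 4 members were lower at day 1 in CD28 KO (24.7% of all genes were), 3 in DKI (15.8%) and 1 in CD28 AYAA (2%), and none changed in Ars2 KO (0.399% of all genes did) or CD28 Y170F (0.0547%). At day 3, 3 were higher in Ars2 KO (6.6% of all genes were) and 1 in CD28 KO (8.57%), while 2 were lower in DKI (13.1%) and 1 in CD28 AYAA (11.3%), with none changed in CD28 Y170F (0.0273%). The contrast of days passed for 2 members, Gzmb and Serpinb9, in CD28 KO (20.5% of all genes were higher by this contrast), DKI (17.7%) and CD28 AYAA (12.3%), and for none in Ars2 KO (3.68% in either direction) or CD28 Y170F (0%). These comparisons share the WT libraries. The plot of differences from WT sets the 8 genes side by side.

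**Figure D3:**
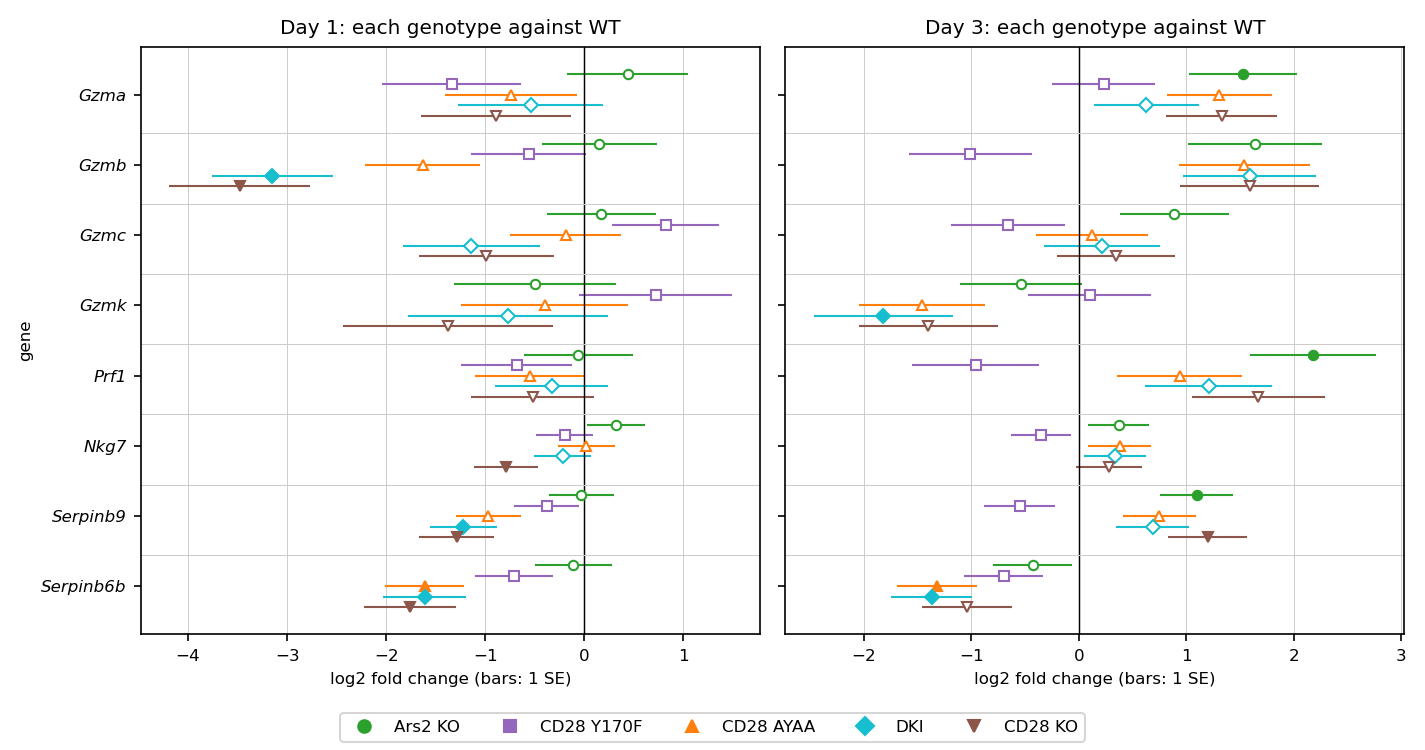
Log2 fold change of each of the 8 tested genes against WT of the same day, with bars of 1 standard error, for the 5 genotypes at day 1 (left) and day 3 (right); filled symbols passed at an adjusted p under 0.05. Gzmb and Serpinb9 lie to the left of 0 at day 1 and to the right at day 3 in CD28 KO, DKI and CD28 AYAA, and Serpinb6b lies to the left on both days.

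CD28 AYAA and CD28 Y170F, which change different motifs of the same tail, were compared with each other directly and share no WT library. At day 1 no member passed (4.35% of all genes did), and the Gzmb difference was −1.07 ± 0.53 (adjusted p = 0.23), or −0.35 (adjusted p = 0.78) without number 3 of CD28 Y170F. Same-numbered libraries deviated together at this day, and in all 3 pairs Gzmb, Serpinb9 and Serpinb6b were lower in CD28 AYAA. With the replicate number as a block no member passed either (Gzmb −0.96, adjusted p = 0.25; Serpinb9 −0.61, adjusted p = 0.23; Serpinb6b −0.9, adjusted p = 0.16). At day 3, 5 members were higher in CD28 AYAA (17.6% of all genes were) and Gzmk was lower (19.2% of all genes were). Gzmb was 5.88-fold higher (2.56 ± 0.55, adjusted p = 0.00071; 3.59 without number 1 of CD28 Y170F), Prf1 3.74-fold (1.9 ± 0.52, adjusted p = 0.005) and Serpinb9 2.46-fold (1.3 ± 0.3, adjusted p = 0.0013), each with no overlap of libraries, and none of these calls was lost without a single library. Nkg7 (0.73 ± 0.25, adjusted p = 0.025) was lost without CD28 AYAA number 3 (0.6, adjusted p = 0.11) or CD28 Y170F number 2 (0.58, adjusted p = 0.14) or 3 (0.61, adjusted p = 0.12). Gzma (1.08 ± 0.42, adjusted p = 0.045), whose libraries overlapped, was lost without CD28 AYAA number 3 (0.4, adjusted p = 0.5) or CD28 Y170F number 2 (0.9, adjusted p = 0.17) or 3 (0.97, adjusted p = 0.14). Gzmk (−1.56 ± 0.53, adjusted p = 0.022) was lost without CD28 AYAA number 2 (−1.39, adjusted p = 0.088) or CD28 Y170F number 3 (−1.38, adjusted p = 0.084). Gzmc newly passed as higher in CD28 AYAA without number 1 of CD28 Y170F (1.35, adjusted p = 0.037).

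DKI and CD28 KO, by contrast, were compared directly with no member passing at day 1 (9.06% of all genes did) or day 3 (0.454%). The Gzmb difference was 0.32 ± 0.62 at day 1 and 0 ± 0.58 at day 3. DKI libraries had less than 12 M counts and CD28 KO libraries 15.7 to 27.3 M, so that depth and sex cannot be told apart from genotype here.

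Markers of other cells and the ratio of Cd8a to Cd4 moved with these levels, and their part in the results was not tested. The ratio of Cd8a to Cd4 was 0.994 to 1.11 at day 0, 2.15 to 2.78 in WT, 1.23 to 1.8 in CD28 KO and 1.83 to 2.03 in DKI at day 1. At day 3 it was 3.21 to 4.39 in WT and 3.37 to 4.83 in CD28 Y170F, but 6.96 to 12.2 in CD28 AYAA, 9.45 to 9.86 in DKI and 10.6 to 14 in CD28 KO. In Ars2 KO it was 4.74, 7.16 and 1.41, which overlapped WT. Against WT of day 3, Cd8b1 was lower in CD28 KO (−0.57, adjusted p = 0.0038) and Ars2 KO (−0.7, adjusted p = 0.00045). It did not pass in DKI (−0.29) or CD28 AYAA (−0.23). Cd8a passed as higher in DKI (0.47) and CD28 AYAA (0.44), but not in CD28 KO (0.17) or Ars2 KO (−0.19). Cd4 passed as lower in CD28 KO (−1.54) and DKI (−0.89), but not in CD28 AYAA (−0.79) or Ars2 KO (0). Taken per unit of Cd8a, Gzmb at day 1 was at 0.069 to 0.109 in CD28 KO and 0.0574 to 0.102 in DKI, against 0.557 to 0.903 in WT. At day 3 it was at 3.41 to 3.66 in CD28 KO, 2.46 to 3.15 in DKI, 2 to 3.7 in CD28 AYAA and 2.36 to 7.54 in Ars2 KO, against 1.11 to 1.51 in WT, again without overlap. Serpinb9 per unit of Cd8a at day 3 was at 0.22 to 0.248 in CD28 KO and 0.156 to 0.428 in Ars2 KO, against 0.111 to 0.119 in WT, and overlapped WT in DKI (0.113 to 0.151) and CD28 AYAA (0.112 to 0.197).

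NK cells also make granzymes and perforin. All 9 of the NK markers examined were detected, with a summed level of 115 to 132 CPM at day 0, and all 9 fell in WT by day 1, to 8.39 to 8.75 CPM. At day 3 the sum was 6.05 to 13.3 CPM in WT, 10.3 to 14.1 CPM in DKI, 8.64 to 42.4 CPM in CD28 AYAA and 47.9 to 67.7 CPM in CD28 KO. Against WT of day 3, 6 of 9 passed as higher in CD28 KO, 2 in Ars2 KO, 2 in DKI and 1 in CD28 AYAA, and 4 of 9 were higher in CD28 AYAA than in CD28 Y170F. Within Ars2 KO of day 3 the library with 5.15 CPM of NK markers was number 3, which had the low Prf1, and those with 23.8 and 28.1 CPM were numbers 1 and 2. The 4 markers of gamma delta T cells summed to 47.7 to 48.4 CPM at day 0, 13.4 to 16.4 CPM in WT of day 3 and 45.6 to 51.7 CPM in CD28 KO of day 3, where all 4 passed as higher than in WT. At day 3 they also summed to 27.6 to 32.1 CPM in DKI (3 of 4 higher than WT), 25.7 to 41 CPM in CD28 AYAA (3 of 4) and 24.2 to 37.2 CPM in Ars2 KO (2 of 4), and 3 of 4 were higher in CD28 AYAA than in CD28 Y170F. General T cell markers (8 genes) were lower than in WT of day 3 in the same genotypes, with 8 passing in DKI, 7 in CD28 KO, 6 in CD28 AYAA and 5 in Ars2 KO, and none in CD28 Y170F. Their sum was 2320 to 2370 CPM in WT and 1620 to 1940 CPM over these 4 genotypes. Markers of B cells (6 genes, 658 to 678 CPM) and myeloid cells (7 genes, 161 to 172 CPM) were high at day 0 and at most 74.9 and 26.8 CPM after stimulation. Markers of mast cells and basophils (5 genes) summed to 2.14 to 14.7 CPM in Ars2 KO and to 2.01 CPM or less in every other group, with all 5 at 0 in DKI at day 1.

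**Figure D4:**
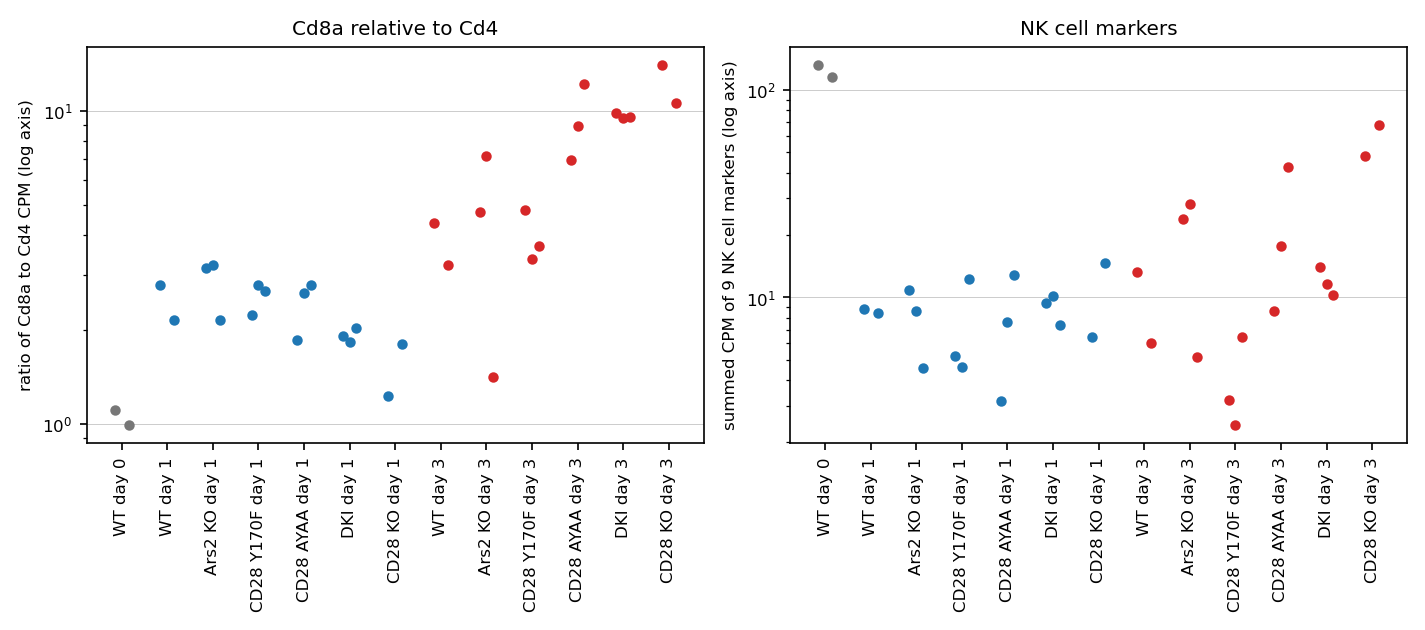
Ratio of Cd8a to Cd4 (left, log axis) and summed CPM of 9 NK cell markers (right, log axis) in each library, with grey for day 0, blue for day 1 and red for day 3. CD28 AYAA, DKI and CD28 KO at day 3 have ratios of 6.96 to 14, above WT at 3.21 to 4.39, and CD28 KO at day 3 has the highest NK sum after stimulation, 47.9 to 67.7 CPM.

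Other genes of the killing pathway were read from 6 lists, whose members were chosen with earlier results of these data known. Of 6 death ligands, receptors and cytokines, 4 were higher and 1 lower in CD28 KO by the contrast of days (20.5% and 14.7% of all genes were), and 4 and 1 in DKI (17.7% and 14.7%). Ifng, the interferon gamma gene, led them (9.47 ± 1.22 in CD28 KO, adjusted p = 3.8e-06; 7.59 ± 1.09 in DKI, adjusted p = 1.8e-05; 5.92 ± 1.01 in CD28 AYAA, adjusted p = 0.00021), followed by Tnf (3.8, 3.09 and 2.8). In WT itself Ifng (−4.68 ± 0.82, adjusted p = 9.6e-05) and Tnf (−2.1 ± 0.41, adjusted p = 0.00027) fell from day 1 to day 3, whereas Gzmb did not. CD28 AYAA against CD28 Y170F at day 3 gave 5 higher (17.6% of all genes were), with Tnf at 2.56 ± 0.34 (adjusted p = 3.2e-06) and Fasl, the Fas ligand gene, at 2.11 ± 0.4 (adjusted p = 0.00019), and 1 lower (19.2%), the receptor gene Fas (−0.95 ± 0.18, adjusted p = 0.00018).

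Of 10 transcription regulators of cytotoxic genes, 1 was higher and 4 lower in CD28 KO at day 1, where 18.6% of all genes were higher and 24.7% lower. Tbx21, which encodes T-bet, was at −3.92 ± 0.3 (adjusted p = 1.6e-09) and Irf4 at −3.87 ± 0.29 (adjusted p = 1.1e-09) against WT. In DKI 4 were lower and 1 higher (15.8% and 10.3% of all genes were), with Tbx21 at −2.89 ± 0.25 (adjusted p = 2.3e-07). By the contrast of days Tbx21 was higher in CD28 KO (3.69 ± 0.39, adjusted p = 4.8e-07), DKI (2.53 ± 0.35, adjusted p = 1.5e-05) and CD28 AYAA (1.68 ± 0.34, adjusted p = 0.001), the 3 genotypes in which Gzmb was. The contrast takes in the low values of day 1. For Tbx21 and the other genes of these lists it does not by itself place a gene above WT at day 3. Whether Tbx21 had a part in the Gzmb levels was not tested. Runx3 went the other way, with −0.74 ± 0.13 in DKI (adjusted p = 0.00012) and −0.56 ± 0.13 in CD28 AYAA (adjusted p = 0.0024). Eomes, the other T-box factor of killer cells, was higher in CD28 AYAA than in CD28 Y170F at day 3 (1.95 ± 0.33, adjusted p = 4.7e-05) and higher than WT in CD28 KO at day 3 (1.78 ± 0.4, adjusted p = 0.0022).

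Other parts of the granule were read next. Of 10 genes for granule proteases, activators and matrix, 5 were lower and 1 higher in CD28 KO at day 1 (24.7% and 18.6% of all genes were); the lower ones included Ctsc (−0.4 ± 0.07, adjusted p = 1e-04), whose product activates granzymes by trimming them, and the chaperone gene Calr (−1.28 ± 0.23, adjusted p = 9.1e-05). By the contrast of days Cst7, which encodes an inhibitor of cathepsins, was higher in CD28 KO (1.41 ± 0.36, adjusted p = 0.003) and DKI (0.88 ± 0.33, adjusted p = 0.042). Of 16 granule release genes, 15 were tested, and 7 rose and none fell in WT from day 1 to day 3 (15.5% and 14% of all genes did), among them Sytl1 (1.27 ± 0.16, adjusted p = 1.2e-06) and Stxbp2 (0.62 ± 0.08, adjusted p = 2.5e-06). Stx11, a syntaxin of granule fusion, was lower at day 1 in CD28 KO (−2.9 ± 0.35, adjusted p = 5.4e-07) and DKI (−1.87 ± 0.3, adjusted p = 9.1e-05). Stxbp2, whose product binds that syntaxin, was lower at day 3 in CD28 KO (−0.36 ± 0.08, adjusted p = 0.0024).

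Among 18 other serpin genes, 7 were tested. Serpina3f and Serpina3g were also higher by the contrast of days, with 4 ± 0.6 and 3.09 ± 0.46 in CD28 KO (adjusted p = 1.8e-05 for each) and 3.14 ± 0.55 and 2.32 ± 0.42 in DKI (adjusted p = 0.00012 and 0.00019). Serpinb6a, a relative of Serpinb6b, was lower by it in CD28 KO (−1.1 ± 0.31, adjusted p = 0.0061) and DKI (−1.3 ± 0.29, adjusted p = 0.0013). Of the 4 other granzymes only Gzmm was tested, and it fell in WT from day 0 to day 1 (−1.49 ± 0.45, adjusted p = 0.0069), like Gzma, and was higher in CD28 AYAA than in CD28 Y170F at day 3 (1.29 ± 0.35, adjusted p = 0.0052).

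Over the 13 group means, the genes closest to each member were found by the root mean square difference of centred log2 CPM, among 10561 candidates. Gzma was closest to Ccr2 (0.42 on the log2 scale), a chemokine receptor gene, then P2ry14 (0.48) and Fgl2 (0.52), where the spread of Gzma itself was 2.08. Closest to Gzmb were E2f7 (1.07), E2f8 (1.14) and Cdkn1a (1.14), all genes of cell cycle control, against its own spread of 2.46. Prf1 was closest to Id2 (0.36), Prag1 (0.38) and Tcrg-C1 (0.38), of which the last is a marker of gamma delta T cells. Serpinb9 was closest to Runx2 (0.29), Tuba1c (0.3) and Chsy1 (0.31), and Serpinb6b to Plek (0.27), Smim3 (0.34) and Vcl (0.34). Nkg7 was closest to Tuba1c (0.24), Gzmk to Abcb10 (0.19) and Gzmc to Tyro3 (0.21). The spreads of Prf1, Serpinb9, Serpinb6b, Nkg7, Gzmk and Gzmc themselves were 0.75, 0.86, 0.94, 0.92, 0.87 and 0.57. A value of 0.5 CPM was added before the logarithm, which narrows the spread of scarce genes such as Gzmc and Gzmk. Small differences are easier to reach for genes of small spread. Among the members, Nkg7 and Serpinb9 (0.43), Gzmc and Serpinb9 (0.44) and Gzmk and Serpinb6b (0.47) lay closest together, while Gzmb and Prf1 differed by 2.39.

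Ordered by mean level over the 13 groups, Gzmb ran from 1930 CPM in Ars2 KO of day 3, 1870 in DKI, 1860 in CD28 KO and 1800 in CD28 AYAA of that day, whose libraries overlapped from one to the next, to 618 CPM in WT of day 3. DKI, CD28 KO and CD28 AYAA lay apart from WT, but number 3 of Ars2 KO, at 707 CPM, lay inside its range. Ars2 KO of day 1 (326 CPM), CD28 Y170F of day 3 (306 CPM), WT of day 1 (293 CPM) and CD28 Y170F of day 1 (199 CPM) overlapped in turn, followed by CD28 AYAA of day 1 at 94.6 CPM. DKI and CD28 KO of day 1 (33 and 26.3 CPM) overlapped each other and lay apart from unstimulated WT at 8.65 CPM. For Serpinb9 the order ran from 123 CPM in CD28 KO of day 3 to 19 CPM in CD28 KO of day 1, so that 1 genotype held both ends. For Prf1, unstimulated WT, at 30 CPM, was second only to Ars2 KO of day 3, at 40.5 CPM, and CD28 Y170F of day 3 was last, at 4.59 CPM, below every other group without overlap. For Serpinb6b the top was WT of day 3, at 60.4 CPM, and the bottom was CD28 KO of day 1, at 6.62 CPM.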

How the data were processed

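RNA of 34 libraries in 13 groups was sequenced as paired reads from ribosomal-depleted, stranded libraries, per the labels' protocols. The deposited values are RSEM expected counts per gene, not normalised by the authors. The submitters' processing notes name bcl2fastq 2.20, FastQC, STAR, RSEM, limma and the mouse build mm10/GRCm38. The annotation release is not given in the sources used here. Values were whole in 83.7 to 90.8% of genes per library. After rounding to whole counts, the fit used edgeR 4.0.16 (R 4.3.3; TMM factors 0.83 to 1.11, filterByExpr, 18292 genes tested, quasi-likelihood F test, 1 mean per group over all 34 libraries), with Benjamini-Hochberg adjustment over all genes tested and a threshold of 0.05. Standard errors were taken as the absolute log2 fold change over the square root of F. CPM uses the TMM library sizes. 

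The alternatives were RLE size factors, no filter, DESeq2 1.42.0, limma-voom (limma 3.58.1), a fit on only the groups of each comparison, a block for the replicate number, and leaving out each library. Fits with 1 stimulated WT number alone on both days were added after seeing the data. Gene symbols were matched to GENCODE M21 for 48144 of 48526 genes. The 10 members and all gene lists were chosen with earlier results of these data known. Members are named throughout, and other genes by size of change among those of a list that passed, or as the 3 closest in pattern. Same-numbered libraries deviated together in Ars2 KO between days (correlations 0.2387, 0.2329 and 0.1011) and between CD28 AYAA and CD28 Y170F at day 1 (0.2794, 0.3259 and 0.3854), and are read as pairs only there. In CD28 Y170F between days they did so too (0.096, 0.0937 and 0.2445), though libraries of different numbers reached 0.0899. Same-numbered libraries of CD28 AYAA between days gave 0.1852, 0.0354 and 0.307, where different numbers reached 0.0833. Those of WT between days gave 0.2923, and −0.2923 for different numbers, since groups of 2 libraries can give only mirrored values. Neither was read as pairs. The main fit does not pair libraries in any comparison. The CD28 KO libraries of day 3 carry column numbers that differ from their titles and were used as a group. Counting error alone is covered by the floor of 3 counts given for a count of 0.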

Additional observations from a re-analysis of the deposited data

Results flagged for a closer look

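The change from day 1 to day 3 differed from that of WT, by a test of the difference itself, for Gzmb and Serpinb9 in 3 genotypes (edgeR, adjusted over all genes). For Gzmb it was larger by 5.07 on the log2 scale in CD28 KO (adjusted p = 0.00021), by 4.75 in DKI (adjusted p = 0.00022) and by 3.18 in CD28 AYAA (adjusted p = 0.0079). For Serpinb9 it was larger by 2.48 in CD28 KO (adjusted p = 0.00061), by 1.9 in DKI (adjusted p = 0.0036) and by 1.72 in CD28 AYAA (adjusted p = 0.01). In these genotypes all 8 libraries lay below WT at day 1 and all 8 above WT at day 3 for both genes. WT had only 2 libraries on each day, and the share of all genes with this pattern is not given here. Against WT of day 3 alone, Gzmb passed in none of these genotypes and Serpinb9 only in CD28 KO. Both CD28 AYAA calls were lost without WT number 1 of day 1 (Gzmb 2.73, adjusted p = 0.055; Serpinb9 1.55, adjusted p = 0.062) or WT number 4 of day 3 (Gzmb 2.92, adjusted p = 0.067; Serpinb9 1.71, adjusted p = 0.05). Against WT of matching depth the Serpinb9 call in DKI (1.69, adjusted p = 0.06) and the Gzmb call in CD28 AYAA (3.25, adjusted p = 0.053) were lost. The 3 contrasts share the WT libraries of both days.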

How the results depend on the processing

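Of 3270 member values under the alternatives, 102 had another sign than the reported one, and 0 of these passed in either fit. Of 118 calls on members, 74 were kept whichever single library was left out and 44 were lost. Under DESeq2, 288 of 296 member results kept their side of the threshold, 6 newly passed and 2 were lost. With only the groups compared, the number of members called was 6 for WT day 1 against day 0, 6 for Ars2 KO day 1 and 8 for DKI day 3 against day 0, 4 for Ars2 KO between days, 0 for Ars2 KO, 6 for CD28 KO, 7 for DKI and 3 for CD28 AYAA against WT of day 3, 1 for CD28 AYAA against CD28 Y170F at day 1, 1 and 3 for DKI against CD28 KO at days 1 and 3, and 4 and 4 for the contrasts of days in CD28 KO and DKI. Without the filter it was 4 for CD28 Y170F day 3 against day 0, 5 for CD28 KO, 4 for DKI and 5 for CD28 AYAA against WT of day 3, 3 for CD28 AYAA against WT of day 1, 1 for CD28 AYAA against CD28 Y170F at day 1, and 1, 5 and 4 for the contrasts of days in Ars2 KO, CD28 KO and CD28 AYAA. DESeq2 gave 2 for CD28 KO at day 3 and 2 for CD28 AYAA at day 1 against WT, and 4 for the contrast in CD28 KO. limma-voom gave 3 for DKI day 1 against day 0, 1, 2 and 3 for Ars2 KO, CD28 KO and CD28 AYAA against WT of day 3, and 0 for CD28 AYAA against WT of day 1. With the replicate block, the contrast of days called 1 member in Ars2 KO (Prf1, 1.85, adjusted p = 0.018) and 4 in CD28 AYAA. Numbers were read as pairs only within Ars2 KO and between CD28 AYAA and CD28 Y170F at day 1. With 1 stimulated WT number alone, 2 members were called between the days of WT under either number, and 1 for the contrast in CD28 AYAA and 1 in DKI. Leaving out 1 library gave 1 to 4 for WT day 3, 3 to 4 for DKI day 1, 4 to 6 for CD28 Y170F day 1 and 2 to 4 for CD28 Y170F day 3 against day 0. Between days it gave 2 to 4 in WT, 5 to 8 in Ars2 KO and 5 to 7 in CD28 KO. Against WT it gave 1 to 4 for CD28 KO and 1 to 3 for DKI at day 1, 0 to 1 for CD28 AYAA on either day, and at day 3 0 to 4 for Ars2 KO, 0 to 1 for CD28 KO, DKI and CD28 Y170F. For CD28 AYAA against CD28 Y170F at day 3 it gave 3 to 7, and for the contrasts of days 0 to 2 in Ars2 KO, 2 to 3 in CD28 KO and 0 to 3 in CD28 AYAA. Where a count moved, the cause was not tested beyond what fewer samples or more genes tested imply. The share of all genes called in each of these fits is not given here. These counts therefore do not show whether the members moved more than genes at large. The other pathway genes and cell markers were not refitted under these alternatives. Groups of 2 libraries and counts under about 1 CPM (Gzmc and Gzmk) limit what could be detected.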
